A study of Mus musculus with 2 samples.

Results

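The ErbB receptors and their EGF-like ligands are described here in 3D cultures grown from mouse mammary basal cells with or without macrophages. In the study, cultures without macrophages formed colonies, and a part of the colonies grown with macrophages budded into organoids. The members are 10 genes chosen by name, the receptor genes Egfr, Erbb2 and Erbb3 and the ligand genes Areg, Ereg, Hbegf, Btc, Tgfa, Egf and Nrg1, out of 49492 genes in the table. A further 5 genes complete the family, namely the receptor gene Erbb4 and the ligand genes Epgn, Nrg2, Nrg3 and Nrg4. Basal cells (lin-CD24+CD29hi) were sorted by flow cytometry out of the mammary glands of adult wild type (WT) female mice and cultured in 3D matrix gel, either alone (ctrl, treatment none) or with M2-like macrophages (M2). The macrophages were derived from bone marrow, were given IL-4 and IL-13, and sat in a transwell insert whose porous membrane kept them apart from the basal cells. Co-culture ran for 11 to 14 days. The harvest day of the ctrl library is not given, and the study's methods allow a wider range of days for colonies in general. The libraries may therefore differ in culture time. According to the study's methods the medium of both groups contained EGF protein, which gives no reads, so both libraries came from cells whose Egfr had a ligand from outside. The methods give an age of 8 to 10 weeks for mice whose mammary glands were processed and of 6 to 8 weeks for the C57/B6 mice that gave the bone marrow. How many mice or wells stand behind a library, and the strain of the basal cell donors, are not given in the sources used here.

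Each group holds 1 library. The ctrl library had 26912610 reads in genes and the M2 library 29413844, and 24415 and 24986 genes had at least 1 read. There was no replicate, so each difference compares 2 libraries and could not be set against the spread between cultures, and all intervals are 95% intervals of counting error only. A gene was called higher or lower when its adjusted p from an exact binomial test over 19233 genes was under 0.05 and its difference was at least 2-fold. Of all genes tested, 8.16% were called higher and 6.55% lower in M2, and the median log2 fold difference was -0.0032. The basal keratin genes Krt14 (81991 reads in ctrl and 68968 in M2) and Krt5 (56383 and 83619 reads) and the epithelial adhesion gene Epcam (20919 and 22821 reads) were abundant in both libraries. Luminal keratin Krt8 was also abundant, with 29888 and 36348 reads. The cells were sorted as basal before culture. In the study's flow cytometry after culture, most cells were luminal and a smaller part basal, both without and with M2. The make-up was not the same, as the basal share was larger and the luminal share smaller with M2. In such bulk RNA, fewer cells of a type and less RNA per cell cannot be told apart.

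ErbB receptors are tyrosine kinases of the cell surface that act in pairs. Egfr binds amphiregulin (Areg), epiregulin (Ereg), epigen (Epgn), betacellulin (Btc), HB-EGF (Hbegf), TGF-alpha (Tgfa) and EGF (Egf), whereas Erbb3 and Erbb4 bind neuregulins, and Erbb4 also some ligands of Egfr. Erbb2 has no ligand of its own and serves as a partner, and the kinase of Erbb3 is weak, so that Erbb3 signals through its partners. The ligands are made as membrane proteins and most are released by ADAM proteases. In the pubertal mammary gland amphiregulin is the ligand that carries the estrogen signal for ductal growth, and it is made mainly by hormone-sensing luminal cells.

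Among the 10 members, all of which had enough reads to be tested, Ereg and Hbegf were called higher in M2 and Areg and Btc were called lower. The other 6 members were not called. The 2 members called in each direction stand against the 8.16% and 6.55% of all genes, and with 10 members a single gene moves such a share by more than that background. The median log2 fold difference of the members was 0.47, with 6 positive and 4 negative values. Of the other family genes, Erbb4 was called lower, Epgn, Nrg2 and Nrg4 were not called, and Nrg3, with 0 and 1 reads, was too low to test.

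**Figure D1:**
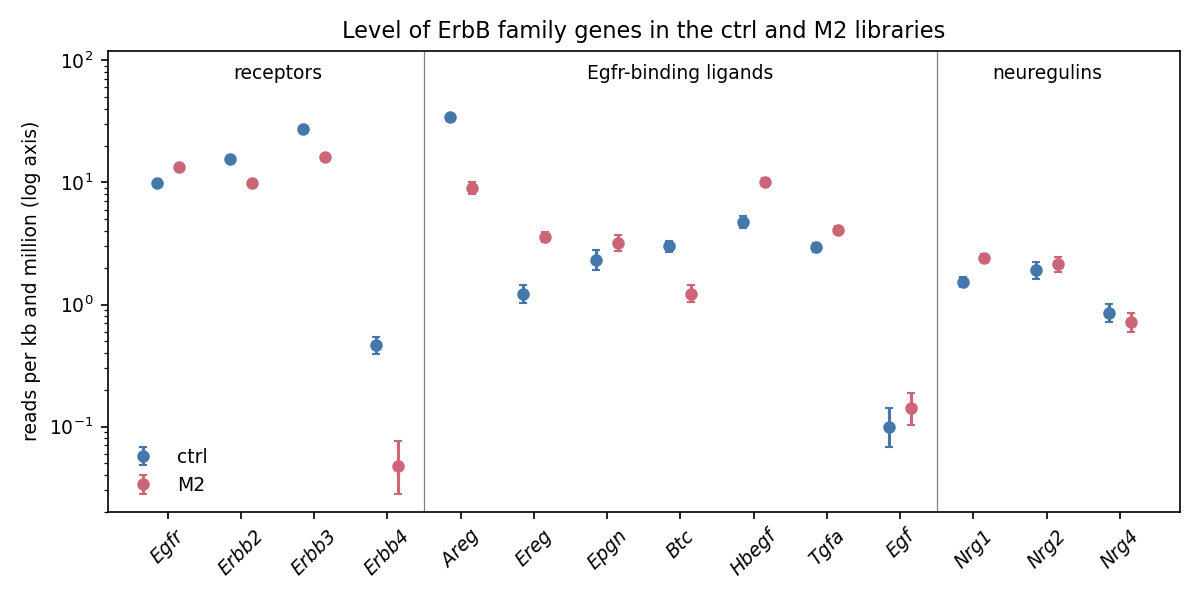
Level per length (RPKM, log axis) of 14 genes of the ErbB family in the ctrl and M2 libraries, 1 library each, with 95% Poisson intervals that cover counting error only. Areg stood highest in ctrl at 34.1 and was at 8.996 in M2, whereas Hbegf and Ereg were higher in M2, and Erbb4 and Egf were the lowest genes in M2.

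Levels were compared between genes as RPKM, the reads of a gene divided by its exon length and by the size of the library. In the ctrl library the members ranked Areg, Erbb3, Erbb2, Egfr, Hbegf, Btc, Tgfa, Nrg1, Ereg and Egf, from 34.1 down to 0.1001 RPKM. The intervals of the neighbours Btc and Tgfa overlapped, as did those of Nrg1 and Ereg. In the M2 library the order was Erbb3, Egfr, Hbegf, Erbb2, Areg, Tgfa, Ereg, Nrg1, Btc and Egf, from 16.3 down to 0.142 RPKM. Here the intervals of Hbegf, Erbb2 and Areg overlapped one another, as did those of Tgfa and Ereg. Areg thus stood first in ctrl, whereas in M2 it stood behind Erbb3 and Egfr and within overlapping intervals of Hbegf and Erbb2.

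Of the receptor genes, Egfr was higher and Erbb2 and Erbb3 were lower in M2, each by less than 2-fold. Egfr (chromosome 11, 16752203-16918158) had 3061 reads in ctrl and 4404 in M2, which is 9.84 RPKM (interval 9.49 to 10.2) and 13.5 RPKM (13.1 to 13.9). It was thus 1.37-fold higher in M2, a log2 fold difference of 0.46 (0.39 to 0.52), and was not called because this lies under the 2-fold threshold. Erbb2 (chromosome 11, 98412470-98437716), the receptor without a ligand, had 2226 and 1499 reads, or 15.6 and 9.98 RPKM. Its log2 fold difference was -0.64 (-0.74 to -0.54). Erbb3 (chromosome 10, 128567523-128589652), the main neuregulin receptor of the family in these libraries, had 4558 and 2821 reads, or 27.6 RPKM (26.8 to 28.4) and 16.3 RPKM (15.7 to 16.9). Its log2 fold difference of -0.76 (-0.83 to -0.69) was the largest among the 6 members that were not called. All 3 genes were well expressed, each above at least 71.8% of the genes tested in both libraries when ranked by RPKM.

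Erbb4 (chromosome 1, 68032186-69108059), the other neuregulin receptor, was far lower than these. It had 158 reads in ctrl and 17 in M2, or 0.466 RPKM (0.396 to 0.544) and 0.0477 RPKM (0.0278 to 0.0764). It was called lower by 9.27-fold, a log2 fold difference of -3.21 (-4.10 to -2.56), and only 0.931% of all genes tested had a lower value. Erbb4 took 0.871% of the summed receptor level per length in ctrl and 0.120% in M2, so the sum was almost entirely that of the 3 member receptors.

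The ratio of one receptor to another within a library does not depend on how the libraries are scaled. For each read of Erbb3 the ctrl library had 0.672 reads of Egfr and the M2 library 1.56, which is a log2 change of 1.22 (1.12 to 1.31). Against Erbb2 the ratio went from 1.38 to 2.94, a log2 change of 1.10 (0.98 to 1.21). Erbb2 and Erbb3 kept nearly the same ratio to each other, 0.488 and 0.531, a log2 change of 0.12 (0.0042 to 0.24). Per length, Egfr made up 18.4% of the receptor sum in ctrl (17.8 to 19.1) and 33.9% in M2 (33.0 to 34.8), while Erbb3 made up 51.6% and 40.9%. On this scale Erbb3 was the highest receptor in both libraries. Without division by length, Egfr made up 50.4% of the receptor reads in M2 and Erbb3 32.3%. In ctrl these parts were 30.6% and 45.6%. The receptor sum was 53.4 RPKM in ctrl and 39.8 RPKM in M2.

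**Figure D2:**
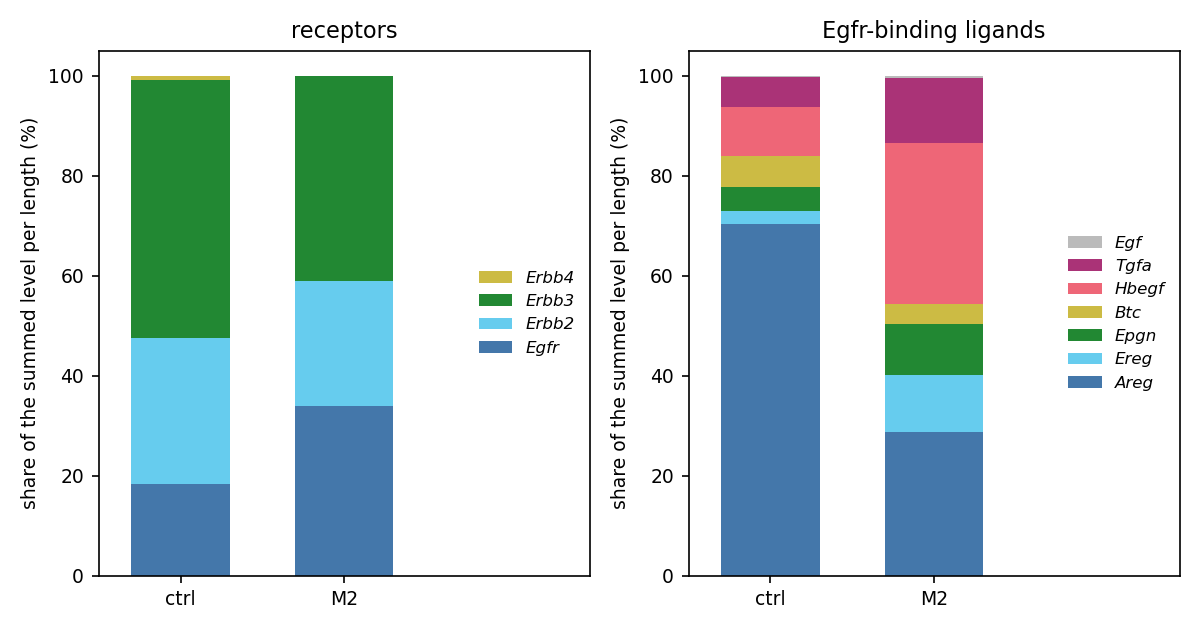
Share of each gene (percent) in the summed level per length of the 4 receptors (left) and of the 7 ligands of Egfr (right), in the ctrl and M2 libraries, 1 library each. The Egfr part of the receptors was 18.4% in ctrl and 33.9% in M2, and the Areg part of the ligands was 70.4% in ctrl and 28.7% in M2.

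The ligands of Egfr differed in both directions. Areg (chromosome 5, 91139599-91148432) had 1137 reads in ctrl and 315 in M2, or 34.1 RPKM (32.1 to 36.1) and 8.996 RPKM (8.03 to 10.05). It was called lower by 3.78-fold, a log2 fold difference of -1.92 (-2.11 to -1.74), and 2.84% of all genes tested had a lower value. Btc (chromosome 5, 91357261-91402994), a ligand that binds both Egfr and Erbb4, had 371 and 160 reads, or 2.99 RPKM (2.69 to 3.31) and 1.23 RPKM (1.05 to 1.43). It was called lower by 2.42-fold, a log2 fold difference of -1.28 (-1.56 to -1.01).

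The 250 bases upstream of the start are shown for Areg, Btc and Erbb4, the family genes called lower for which the RefSeq table (GRCm38.p6) had such a window, to set the sequences of the genes that were lower together side by side. They lie on chromosome 5 from 91139349 to 91139598 (plus strand), chromosome 5 from 91402995 to 91403244 (minus strand) and chromosome 1 from 69108060 to 69108309 (minus strand), and each is written 5′ to 3′ on the strand of its gene. Capitals mark, in this order, a cAMP response element, a GC box and a TATA box.
Areg: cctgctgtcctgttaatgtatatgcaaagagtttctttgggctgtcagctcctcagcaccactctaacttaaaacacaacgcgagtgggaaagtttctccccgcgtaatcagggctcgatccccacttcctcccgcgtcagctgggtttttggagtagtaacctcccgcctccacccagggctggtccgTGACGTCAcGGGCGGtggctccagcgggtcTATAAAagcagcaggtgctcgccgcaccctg
Btc: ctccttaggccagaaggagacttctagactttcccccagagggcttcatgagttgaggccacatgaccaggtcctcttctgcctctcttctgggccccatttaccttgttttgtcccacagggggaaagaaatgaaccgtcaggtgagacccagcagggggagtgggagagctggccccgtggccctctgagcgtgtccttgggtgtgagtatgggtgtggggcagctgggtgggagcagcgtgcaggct
Erbb4: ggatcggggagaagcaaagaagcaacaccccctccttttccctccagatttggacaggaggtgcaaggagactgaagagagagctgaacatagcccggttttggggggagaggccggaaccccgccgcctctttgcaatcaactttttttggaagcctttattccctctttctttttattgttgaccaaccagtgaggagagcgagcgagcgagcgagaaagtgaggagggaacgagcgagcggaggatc
Areg held the letters of a cAMP response element (TGACGTCA) 61 to 54 bases upstream of its start, as did 1.55% of 32851 windows of the same length. A GC box (GGGCGG) lay 52 to 47 bases upstream, a motif that 32.7% of the windows held. A TATA box (TATAAA) lay 31 to 26 bases upstream, as in 12.4% of the windows. Both a cAMP response element and a TATA box were held by 0.119% of the windows. No other pair of motifs was counted, so this share does not show how unusual the Areg window is. An AP-1 site (TGANTCA), found in 6.75% of the windows, was in none of the 3 sequences. The same held for a STAT site (TTCNNNGAA), found in 7.02%, for an estrogen response element, found in 0.0639%, and for a kappaB site, found in 3.90%. Both strands were searched, and Btc and Erbb4 held none of these motifs. The GC content was 57.2% for Areg, 59.6% for Btc and 54.0% for Erbb4, against a median of 52.4%. These matches are a description of the letters and say nothing on whether a factor was bound.

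Ereg and Hbegf stood higher in M2. Ereg (chromosome 5, 91074622-91093646), a ligand of Egfr and Erbb4, had 139 reads in ctrl and 427 in M2, or 1.23 RPKM (1.03 to 1.45) and 3.59 RPKM (3.26 to 3.95). It was called higher by 2.91-fold, a log2 fold difference of 1.54 (1.27 to 1.84), and 5.14% of all genes tested had a higher value. Hbegf (chromosome 18, 36504929-36515805), which binds heparan sulfate as well as Egfr and Erbb4, had 310 and 692 reads, or 4.76 RPKM (4.24 to 5.32) and 10.1 RPKM (9.38 to 10.9). Its log2 fold difference of 1.09 (0.89 to 1.29) lay just inside the 2-fold threshold, and its interval reached below it.

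The remaining ligands of Egfr were not called, and each had a positive value. Tgfa (chromosome 6, 86195223-86275719) had 524 and 765 reads, or 2.94 and 4.09 RPKM, a log2 fold difference of 0.48 (0.31 to 0.64). Epgn (chromosome 5, 91027464-91035215) had 115 and 167 reads and a value of 0.47 (0.12 to 0.82). Egf (chromosome 3, 129677565-129755316) was the lowest member, with 31 and 46 reads, or 0.1001 RPKM (0.0680 to 0.142) and 0.142 RPKM (0.104 to 0.189). Its interval, -0.19 to 1.21 on the log2 scale, included 0, so a difference in Egf was not detectable at this depth. Only 5.46% of the genes tested were below Egf in ctrl and 7.29% in M2.

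**Figure D3:**
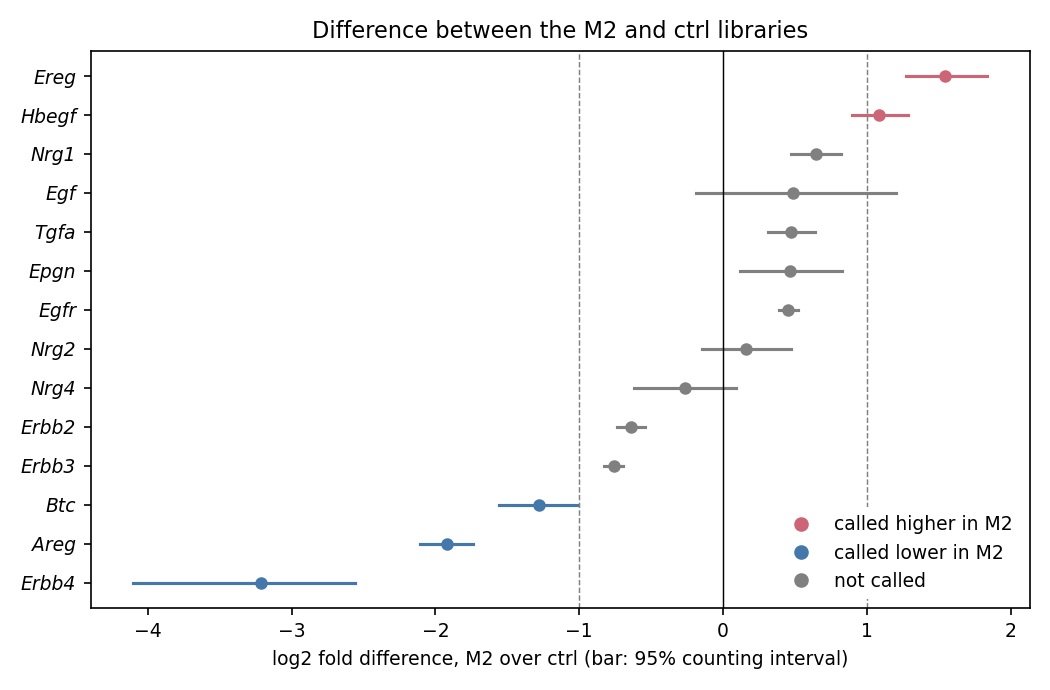
Log2 fold difference of M2 over ctrl for 14 genes of the ErbB family, with 95% counting intervals (bars) and dashed lines at the 2-fold threshold; there is 1 library per group. Ereg (1.54) and Hbegf (1.09) were called higher, Btc (-1.28), Areg (-1.92) and Erbb4 (-3.21) were called lower, and the other 9 genes were not called.

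Because ligands of Egfr compete for one receptor, their make-up was compared within each library. Per length, Areg accounted for 70.4% of the summed level of the 7 ligands in ctrl (68.7 to 72.1) and for 28.7% in M2 (26.2 to 31.1). Hbegf accounted for 9.83% (8.75 to 10.9) and 32.3% (30.2 to 34.3), Ereg for 2.53% and 11.4%, and Tgfa for 6.07% and 13.04%. A ligand pool led by Areg in ctrl was thus led by Hbegf and Areg, whose levels could not be told apart, in M2. For each read of Areg there were 0.122 reads of Ereg in ctrl and 1.36 in M2, an 11.1-fold change in the ratio (log2 3.47, 3.13 to 3.81). The ratio of Hbegf to Areg changed by 8.06-fold (log2 3.01, 2.74 to 3.28), and that of Tgfa to Areg by 5.27-fold. Areg and Btc, both called lower, also differed from each other, the ratio of Areg to Btc being 3.06 in ctrl and 1.97 in M2 (log2 change -0.64, -0.97 to -0.31).

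The sum over the 7 ligands depended on the scale. Per length it was 48.4 RPKM in ctrl and 31.4 RPKM in M2, a 1.54-fold difference. Areg has the shortest exon length of the 7 genes, 1215 bases, and so weighs more on this scale. In CPM, which scales reads by library size alone and not by length, it was 95.6 and 89.2, a 1.07-fold difference. On that scale the Areg share was 43.3% in ctrl and 12.2% in M2, and Tgfa, with 29.7%, was the highest ligand in M2.

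The neuregulin genes, whose products bind Erbb3 and Erbb4, were low and were not called. Nrg1 (chromosome 8, 31814551-32884029) had 436 reads in ctrl and 716 in M2, or 1.53 RPKM (1.39 to 1.68) and 2.40 RPKM (2.23 to 2.58). Its log2 fold difference was 0.65 (0.47 to 0.82). Nrg2 had 162 and 190 reads and a value of 0.16 (-0.15 to 0.47). Nrg4 had 143 and 125 reads and a value of -0.26 (-0.62 to 0.09), so neither could be told from no difference at this depth. Summed per length, the neuregulins were at 4.30 RPKM in ctrl and 5.25 RPKM in M2, well under the ligands of Egfr. Nrg1 was thus 1.56-fold higher in M2 and its receptor gene Erbb3 1.69-fold lower, both under the threshold for a call.

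The use of strand in counting is not given in the sources used here, so reads of overlapping genes cannot be told apart. Exons of Ereg share 141 bases with the antisense gene Gm42532 (18 and 51 reads), and those of Nrg1 share 1607 bases with Gm26578 (77 and 118 reads). Nrg4 shares 943 bases with the more abundant Fbxo22 (1541 and 1820 reads), so its level is uncertain. For Areg, Btc, Hbegf, Egfr, Erbb3 and Erbb4 no exon overlap with another gene was found in the table.

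When calls were made with the exactTest of edgeR under an assumed biological coefficient of variation, the result depended on that value. At 0.2, where 5.01% of all genes were called higher and 3.59% lower, Ereg stayed higher and Areg, Btc and Erbb4 stayed lower, while Hbegf was not called. At 0.4, where 0.91% and 0.676% of genes were called, no family gene was called.

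Of the EGF-like ligand genes, 4 lie in 1 stretch of 375.531 kb on chromosome 5 (91027464 to 91402994), in the order Epgn, Ereg, Areg and Btc. Their log2 fold differences were 0.47, 1.54, -1.92 and -1.28 in that order, so the neighbours Ereg and Areg were called in opposite directions. The ratio of Ereg to Epgn changed by a log2 value of 1.08 (0.62 to 1.54). Gm19619, a gene between Areg and Btc, was called lower with 23 and 3 reads, and the limit of its log2 interval nearest to 0 was -1.28. On the side of Epgn, the 2 neutrophil-attracting chemokine genes Cxcl1 (6471 and 32661 reads) and Cxcl2 (205 and 1209 reads) lie 134 and 122 kb away and were called higher, with log2 values of 2.27 and 2.49. Beyond them Cxcl15 (1.19) and Gm43085 (1.20) were called higher as well. Between these chemokine genes and Epgn lies Mthfd2l, a gene of mitochondrial folate metabolism, which was not called (-0.35, -0.54 to -0.17). Beyond Btc, Parm1, Gm7832, Rchy1, Gm43039 and Thap6 were not called. Differences along this stretch therefore did not go one way.

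**Figure D4:**
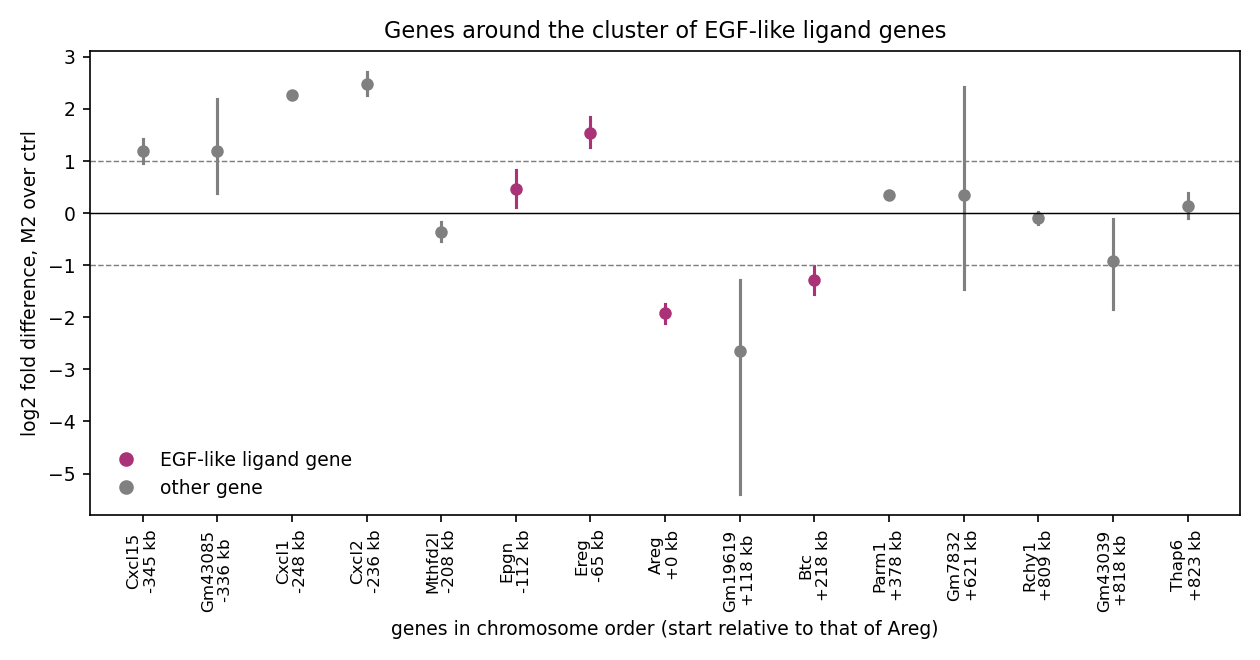
Log2 fold difference of M2 over ctrl, with 95% counting intervals, for 15 genes in and around the ligand cluster, in chromosome order and labelled with the distance of their start from that of Areg; dashed lines mark the 2-fold threshold. Cxcl15, Gm43085, Cxcl1, Cxcl2 and Ereg lie above the upper line, whereas Areg, Gm19619 and Btc lie below the lower line.

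Markers of the cell types that the cultures could hold were compared beside the family genes. Their counts stand beside 8.16% of all genes tested called higher and 6.55% called lower. Of 9 genes of hormone-sensing luminal cells, 8 were tested, with 3 positive and 5 negative values. All 5 negative ones were called lower, 0 genes were called higher, and the median log2 fold difference was -1.57. Their summed level was 449 CPM in ctrl and 144 in M2, and without Prlr, the member with the most reads, it was 304 and 96.0. The prolactin receptor gene Prlr fell from 3967 to 1379 reads (log2 -1.59) and the progesterone receptor gene Pgr from 3195 to 575 (-2.54). The pioneer factor gene Foxa1 fell from 2443 to 873 (-1.55). The estrogen receptor gene Esr1 and Greb1 were chosen after their values were seen. Esr1 fell from 1028 to 281 reads, with a log2 value of -1.94 (-2.14 to -1.75). Greb1 fell from 1109 to 137 reads, with a log2 value of -3.08 (-3.35 to -2.83). The 3 positive values, also named after they were seen, were those of Cited1 at 0.83 (0.58 to 1.09), Ly6a at 0.44 (0.23 to 0.65) and Wnt4 at 0.08 (-0.39 to 0.56), none of them called. The list therefore did not move one way. In the study's flow cytometry of such cultures, Sca1hi luminal cells were a smaller share with M2 than in control. The RNA of Ly6a, the gene of Sca1, was not lower here. It was measured over the whole culture, basal cells included, and not as protein on luminal cells, so the measures are unlike. The part of hormone-sensing luminal cells in the Areg, Btc and Erbb4 values was not tested. Of the 22 macrophage markers, 16 in ctrl and 13 in M2 had no more than 3 reads, and Adgre1 and Ptprc, which define macrophages and leukocytes, were at 0 in both libraries, an upper limit of 3 reads or 0.109 and 0.104 CPM. Without Arg1 (1507 and 2090 reads) the macrophage list summed to 10.7 and 12.9 CPM. Cd163 (2 and 30 reads) and Aif1 (3 and 40 reads), 2 macrophage genes named after their values were seen, were called higher, whereas the macrophage genes Cd68 (170 and 165 reads) and Csf1r, the CSF1 receptor gene (94 and 92 reads), had no call. The part of macrophage RNA in the Ereg and Hbegf values was not tested. The summed basal list was at 9037 and 9286 CPM, with 1 of 10 genes called in each direction. The luminal list was at 4347 and 3807, with 1 of 11 genes called higher and 2 lower. Of 9 fibroblast genes tested, 3 were called lower and 1 higher, with a median of -0.98. Without Postn (72824 and 71795 reads) the fibroblast list summed to 339 and 143 CPM, and its part in the ErbB values was not tested.

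The rest of the pathway was described with 4 lists ordered from ligand release to target genes. Their counts stand beside 8.16% of all genes tested called higher and 6.55% called lower. The list for ligand release held 9 genes, 2 of them called higher and 0 lower, with a median of 0.41. The called genes were Adam12, a protease that can release Hbegf, with 1242 reads in ctrl and 4363 in M2 (log2 1.74, 1.65 to 1.84), and Adam19, with 173 and 452 reads (1.31, 1.06 to 1.58). Adam17, the main protease for Areg, Ereg, Hbegf and Tgfa, was named after its values were seen. It had 1978 and 2956 reads, a value of 0.51 that was not called. Timp3, an inhibitor of Adam17 and the gene with the most reads in the list, had 27205 and 19787 reads (-0.53).

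Genes that restrain the receptors, such as those for ubiquitin ligases and phosphatases that act on them, showed no call among 12 genes. Their median was -0.22, with 9 negative and 3 positive values between -0.68 and 0.44. The lowest was that of Lrig1, which promotes the loss of ErbB receptors from the cell, with 7636 and 5013 reads (-0.68, -0.73 to -0.62). The 23 genes that relay the signal through Ras, ERK and PI3K also showed no call, with a median of -0.06 and a range of -0.94 to 0.32. Pik3r1, the regulatory subunit of PI3K with the most reads in that list, had 18948 and 17945 reads (-0.15).

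Target genes of ERK, the kinase at the end of the Ras cascade, went both ways. Of 19 genes, 3 were called higher and 4 lower, with a median of -0.14. Over all genes tested, 8.16% were called higher and 6.55% lower. The immediate early genes Fos and Egr1 fell from 42339 to 11153 reads (-1.99, -2.02 to -1.96) and from 12610 to 4322 reads (-1.61). The ERK phosphatase gene Dusp4 rose from 1328 to 3377 reads (1.28), and Fosl1, which encodes an AP-1 subunit, rose from 70 to 175 reads (1.24, 0.84 to 1.67). Dusp6, another ERK phosphatase gene, named after its values were seen, went from 10860 to 5992 reads (-0.93, -0.97 to -0.88). It was not called. The other called genes, named after their values were seen, were the feedback inhibitor genes Spry1 (-1.16) and Spry2 (-1.04), which were lower, and Spred3 (1.04), which was higher. At an assumed coefficient of variation of 0.2, 1 gene of this list was called higher and 2 lower, and at 0.4 none of the 4 lists had a call.

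**Figure D5:**
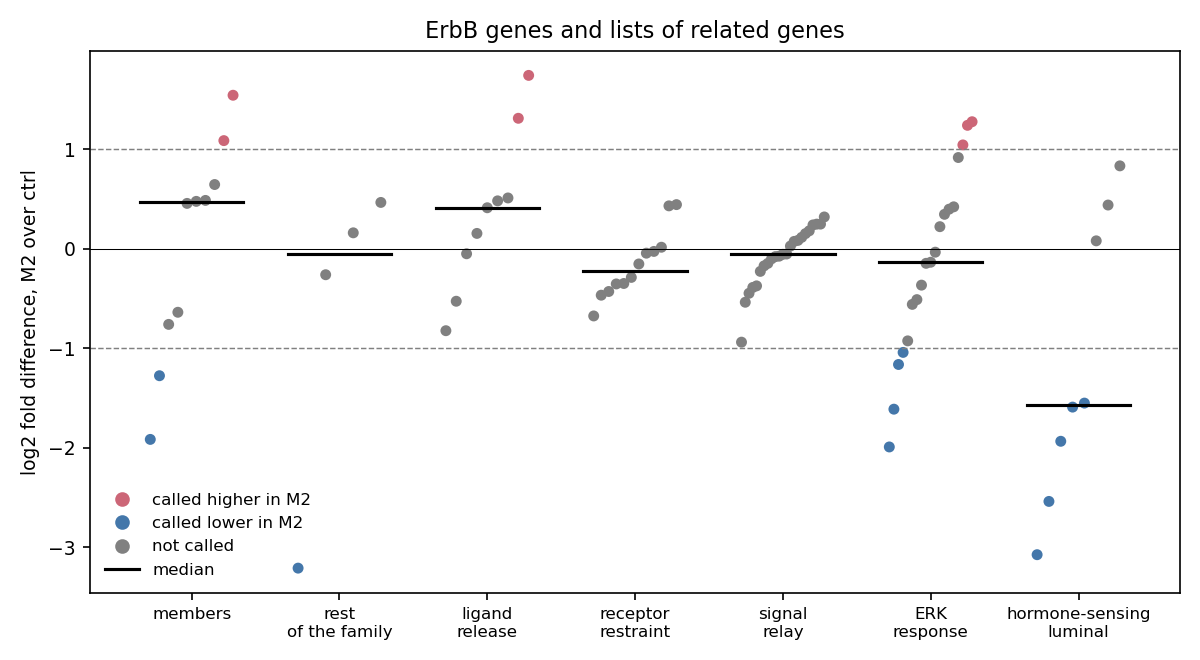
Log2 fold difference of M2 over ctrl for each tested gene of the ErbB members, the rest of the family, the 4 pathway lists and the hormone-sensing luminal markers; bars are medians, dashed lines the 2-fold threshold, and there is 1 library per group. The members spread from -1.92 to 1.54, the receptor restraint and signal relay genes lie within 2-fold, and 5 of 8 hormone-sensing genes lie below the lower line.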

How the data were processed

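The values deposited by the authors are raw counts of reads in each gene, not normalized, for 1 ctrl and 1 M2 library. Per the labels, RNA was taken with a column kit, a SMARTER mRNA kit was used for the libraries, and the build was GRCm38 (mm10), as which coordinates are given. The study's methods name another RNA reagent. The aligner, the counting tool, the annotation and the use of strand are not given in the sources used here. The names of 26 genes had become dates; these were tested but are not named.

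Genes with at least 10 reads over both libraries (19233) were tested. Library sizes were scaled by TMM in edgeR 4.0.16 under R 4.3.3 (factors 1.02 and 0.980). The log2 fold difference is that of reads plus a pseudocount of 1 over the scaled size, M2 over ctrl. Each gene had a two-sided exact binomial test with Benjamini-Hochberg adjustment over all genes tested, and 95% Clopper-Pearson intervals, or Poisson intervals for levels. Shares of a sum have delta-method intervals. As no source mentions molecular identifiers, intervals and floors cover nothing beyond counting error. RPKM used the gene length in the table. DESeq2 1.42.0 served for size factors alone. The tests were checked on simulated data with counting error alone, so the check does not cover the spread between cultures. The members and lists were chosen with earlier results of these data known. Genes named were the family, up to 4 called genes and the gene with the most reads of each pathway list, the 5 tested genes on each side of the ligand cluster and those inside it, and the 3 genes with the most reads of each marker list.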

Additional observations from a re-analysis of the deposited data

How the results depend on the processing

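The 14 family genes with a value kept their direction under every alternative that gave one. Filters, thresholds and assumed coefficients of variation leave the fold difference as it is, so only scaling and pseudocounts could have changed a direction. All 14 genes kept their side of the thresholds with library totals, upper quartile or median-of-ratios scaling, and with pseudocounts of 0.5 and 5. They also did so with no filter and with an assumed coefficient of variation of 0.1. With 0.2, members called higher dropped to 1, since Hbegf lost its call. With 0.4 they were 0 higher and 0 lower, and with a 4-fold threshold also 0 and 0, as Areg at 3.78-fold falls short. Over all genes, 797 were called higher and 583 lower with at least 1 CPM in both libraries, 964 and 691 with 0.2, 175 and 130 with 0.4, and 616 and 494 with a 4-fold threshold. Fewer genes were tested under the 1 CPM filter, so its counts are not parts of the same total as the others. The filter of 1 CPM removed Erbb4, and the median of the rest of the family was then 0.16 in place of -0.05. Ligand shares by reads, an alternative chosen after seeing the data, were 43.3% in ctrl and 12.2% in M2 for Areg, 11.8% and 26.9% for Hbegf, 5.29% and 16.6% for Ereg, 19.9% and 29.7% for Tgfa, 14.1% and 6.22% for Btc. Depth limits Egf, Nrg3 and Erbb4 in M2. No paired analysis was possible because ctrl and M2 have 1 library each.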
